A study of Mus musculus with 2 samples.

Results

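Interferon-stimulated genes, the interferon receptors and the factors that act between them were examined in mouse keratinocytes labelled Chuk-deleted. The genes were taken by name, from a list of 47 symbols plus every gene whose name in the array files begins with Oas or Gbp. The rule took 93 of the 41174 gene probes, which stand for 61 of 20809 named genes. Of these 61 genes, 46 had a probe bright enough to test, meaning that on each array Cy3, Cy5 or both stood well above background, among 13551 tested genes in all.

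Interferons are secreted proteins that warn neighbouring cells of infection. Type I interferons bind the receptor pair IFNAR1 and IFNAR2, which drives a complex that holds STAT2 and IRF9 to the interferon-stimulated response element (ISRE), while interferon gamma binds IFNGR1 and IFNGR2 and acts at the gamma-activated site (GAS). The induced genes encode RNA sensors, antiviral effectors and immune GTPases, and keratinocytes carry both receptors and answer both kinds of interferon.

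On each of 2 two-colour Agilent arrays, RNA of wild-type mouse keratinocytes (Cy3) was hybridised against RNA of keratinocytes that the labels call a CHUK-LoxP mutant and describe as deleted for that gene (Cy5). Chuk encodes IKKα, the alpha subunit among IκB kinases, which skin needs for its maturation. The labels give 1 group of 2 replicates with the dyes always the same way round, so dye and genotype cannot be told apart. The labels name no strain, age, Cre driver, culture condition or interferon treatment, and do not say whether the replicates came from separate cultures or animals, so p-values measure only the spread between 2 arrays, which may be technical.

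Values are log2 ratios of Cy5 over Cy3 after loess normalisation, given for array 1 and array 2 and as their mean ± SD (n = 2). A gene rose or fell where its adjusted p in limma's moderated test, after Benjamini-Hochberg adjustment over all probes tested, was under 0.05. Rose means a higher signal in the channel labelled Chuk-deleted. With 1 residual degree of freedom a probe's spread is weakly known, and in arrays simulated with this design more calls were false than the threshold states, so calls near 0.05 are less secure than their adjusted p says. At a threshold of 0.01, chosen after this was seen, 20 of the 22 interferon genes that fell and 5 of the 8 that rose still passed.

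The median spot signal was 109.9 and 95.2 in Cy3 and 218 and 171.5 in Cy5, for array 1 and array 2. Both Chuk probes were higher in Cy5, at 0.73 and 0.75 for the brighter and 0.93 and 0.78 for the other. This goes against the label, but which exons were deleted and where the probes lie were not known here. Of 6 keratinocyte markers tested, 5 were higher and 1 was lower in Cy5, where 32.7% of all tested genes were higher and 28.4% lower. The basal keratin Krt5 stood at a mean of 0.23 and Trp63, a factor of basal keratinocytes, at 0.90. Krt5 turned to -0.53 when ratios were centred on the arrays' spike-in controls, but both genes were well above background in both channels on both arrays.

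To show the sequence that interferon factors read, RefSeq promoters of build GRCm38.p6 were searched on both strands. These promoters span 250 bases before to 50 after a gene's start, and only the 250 bases before it were searched. The motifs were the ISRE core (GAAA, 2 bases of any kind, then GAAA again), the GAS core TTCNNNGAA and the NF-κB consensus. Of the 61 genes, 48 matched a promoter. The ISRE core was present in 21 of the 48 (43.8%), against 3.46% of 27025 genes with a promoter. The GAS core was found in 13 of 48 (27.1%, against 8.13%) and the NF-κB consensus in 13 of 48 (27.1%, against 8.23%). An ISRE core lay in 9 of 19 matched genes that fell (47.4%), in 2 of 4 that rose (50%), in 4 of 15 that passed in neither direction (26.7%) and in 6 of 10 without a tested probe (60%). Genes with the core thus stood in every class of outcome. A match is a description of letters and does not show that a factor binds there.

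The 250 bases upstream of 6 genes are shown 5′ to 3′ on the gene's strand because these genes hold an ISRE core and had the largest falls or rises among such genes. Capitals mark ISRE cores, which read TTTC, 2 bases of any kind and TTTC again where they lie on the other strand, and overlapping cores run together. The first 4 genes fell, and Oas1c and Stat2 rose. Their upstream windows are Gbp3 at chr3:142559794-142560043, plus strand. That of Ifi203 is chr1:173942493-173942742, minus strand, taken from the start whose window holds the core. Another RefSeq start of Ifi203 has no ISRE core in its window. Rsad2 has chr12:26456453-26456702, minus strand, and Isg15 has chr4:156200819-156201068, minus strand. Oas1c has chr5:120812515-120812764, minus strand, and Stat2 has chr10:128270248-128270497, plus strand.
Gbp3: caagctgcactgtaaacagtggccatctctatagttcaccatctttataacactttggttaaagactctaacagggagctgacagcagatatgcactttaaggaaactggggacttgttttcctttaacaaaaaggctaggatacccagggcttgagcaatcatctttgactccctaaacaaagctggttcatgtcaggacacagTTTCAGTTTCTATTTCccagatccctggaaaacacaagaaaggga
Ifi203: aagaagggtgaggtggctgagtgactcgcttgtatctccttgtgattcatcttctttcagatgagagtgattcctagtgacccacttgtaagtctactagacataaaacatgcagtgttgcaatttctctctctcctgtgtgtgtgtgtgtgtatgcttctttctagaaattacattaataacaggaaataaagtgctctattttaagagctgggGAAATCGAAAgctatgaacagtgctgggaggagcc
Rsad2: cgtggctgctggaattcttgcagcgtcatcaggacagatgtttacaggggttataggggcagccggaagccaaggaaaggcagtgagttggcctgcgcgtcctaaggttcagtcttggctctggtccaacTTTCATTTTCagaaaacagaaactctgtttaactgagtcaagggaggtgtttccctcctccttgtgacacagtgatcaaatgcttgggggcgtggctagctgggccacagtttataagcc
Isg15: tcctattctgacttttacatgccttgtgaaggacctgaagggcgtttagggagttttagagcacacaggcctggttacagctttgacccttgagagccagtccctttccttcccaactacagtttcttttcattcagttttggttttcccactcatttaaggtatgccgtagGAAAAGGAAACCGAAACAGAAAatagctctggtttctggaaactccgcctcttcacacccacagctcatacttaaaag
Oas1c: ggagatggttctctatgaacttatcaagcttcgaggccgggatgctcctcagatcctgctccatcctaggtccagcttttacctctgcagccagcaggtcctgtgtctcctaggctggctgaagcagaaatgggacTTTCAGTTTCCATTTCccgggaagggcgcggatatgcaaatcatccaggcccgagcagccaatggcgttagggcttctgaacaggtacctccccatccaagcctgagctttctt
Stat2: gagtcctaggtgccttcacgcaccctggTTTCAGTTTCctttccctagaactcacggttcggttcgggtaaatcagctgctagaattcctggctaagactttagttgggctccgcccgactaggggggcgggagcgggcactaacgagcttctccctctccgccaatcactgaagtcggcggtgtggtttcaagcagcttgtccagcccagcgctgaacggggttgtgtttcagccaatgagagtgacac
Isg15 has 3 overlapping cores between positions -78 and -57 from the start, while Gbp3 has 2 between -45 and -30. Oas1c, which rose, has 2 between -114 and -99.

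Of the 46 tested interferon genes, 22 fell (47.8%), 8 rose (17.4%) and 16 passed in neither direction. Over all tested genes 28.4% fell and 32.7% rose, so the share that fell was higher among the interferon genes and the share that rose was lower. Their median log2 ratio was -0.13, at -0.11 on array 1 and -0.14 on array 2, beside 0.02 over all genes. The sign was the same on both arrays in 40 of 46 genes (87%, against 89.4% of all genes). At least a 2-fold difference on both arrays was seen for 4 interferon genes on the lower side (8.7%, against 3.22%) and for 2 on the higher side (4.35%, against 1.48%).

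These counts depend on the normalisation. Centring each array on its median without loess, which drops the correction for intensity and moves the zero, raised the median of all genes by 0.53 and gave 21 interferon genes higher and 13 lower, while centring the loess ratios on the spike-in controls, which moves only the zero, lowered it by 0.76 and gave 2 higher and 43 lower. Median centring brought back to the loess median, which drops the correction but keeps the zero, gave 7 higher (15.2%, against 28.6% of all genes) and 28 lower (60.9%, against 29.2%). In these 3 fits limma's estimate of the prior degrees of freedom was infinite, so every probe was given a single spread and calls followed the size of the ratio alone. The difference of the interferon median from that of all genes was -0.15 under loess and with spike-in centring, and -0.35 in both fits without loess. In each of the 8 settings with a finite estimate, Bst2, Ddx58, Gbp3, Gbp6, Ifi202b, Ifi204, Ifih1, Ifit3, Igtp, Irf5, Isg15 and Usp18 were called lower, and their means were below 0 in the other 3 too. The genes that the files name Ifi27 and 1810023F06Rik were called higher in those 8 and stood above 0 in the other 3.

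**Figure D1:**
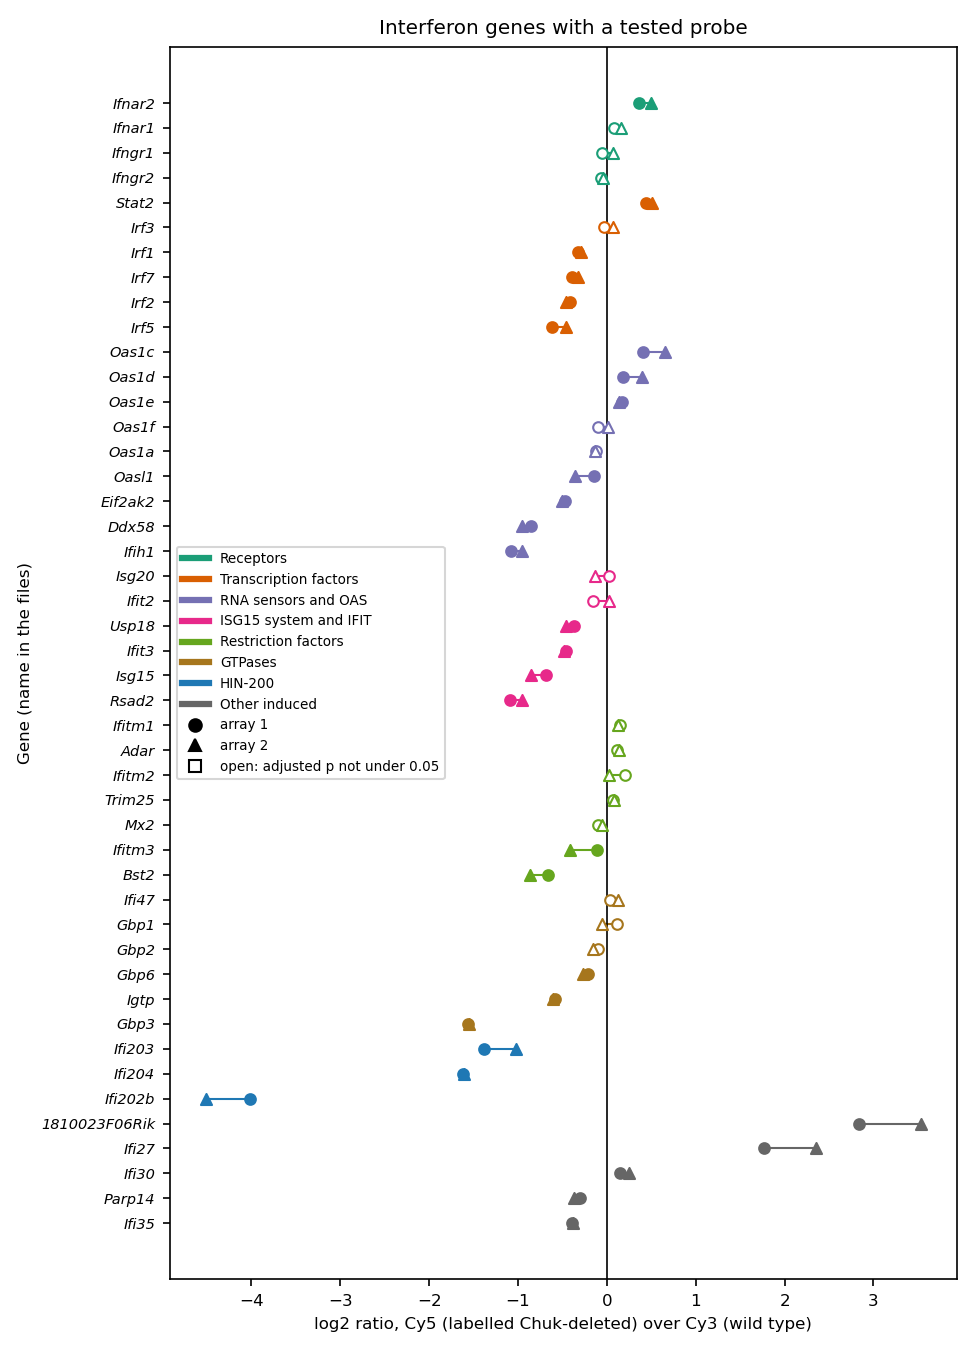
Log2 ratio of Cy5 (labelled Chuk-deleted) over Cy3 (wild type) on the x axis for the 46 tested interferon genes, one per row, coloured by role, with a circle for array 1, a triangle for array 2 and open symbols where the adjusted p was not under 0.05. Ifi202b lies lowest, at -4.02 and -4.52, and 1810023F06Rik highest, at 2.84 and 3.54. Signs of smaller ratios depend on the centring.

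**Figure D2:**
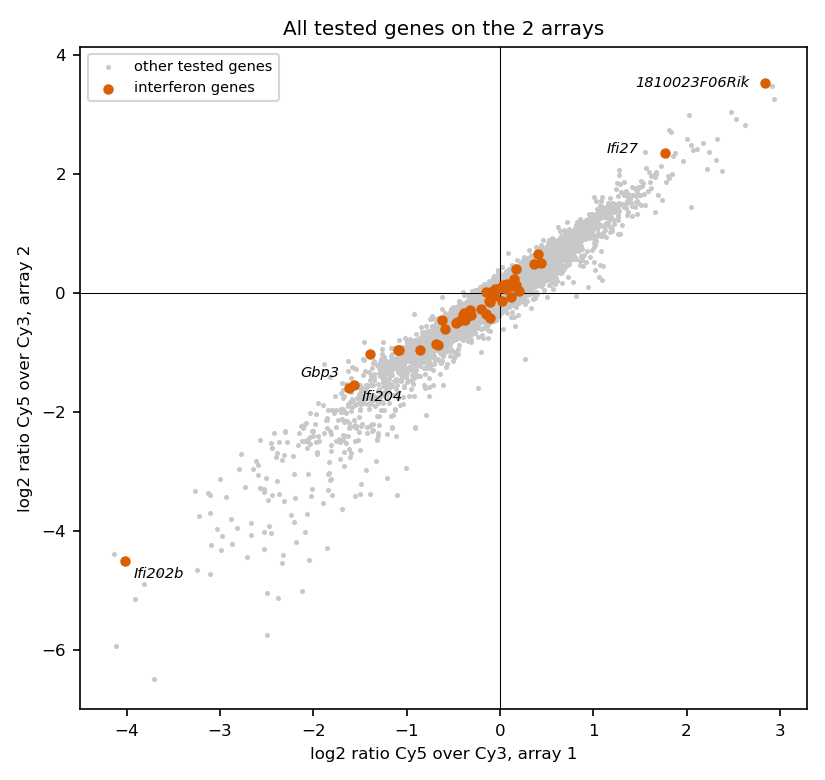
Log2 ratio on array 1 (x axis) against array 2 (y axis) for all 13551 tested genes in grey and the 46 interferon genes in orange. Ifi202b ranks 5 among the falls and 1810023F06Rik ranks 2 among the rises, while most interferon genes lie near the origin.

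Among the receptors, 1 of 4 tested subunits rose (25%, against 32.7% of all tested genes) and none fell (against 28.4%). Ifnar2, the signalling subunit of the type I receptor, had a ratio of 0.36 on array 1 and 0.50 on array 2. Its mean of 0.43 ± 0.09 passed (limma adjusted p = 0.00111), but turned to -0.33 with spike-in centring. A second, dimmer Ifnar2 probe also passed on the higher side, at 0.55. The brightest receptor genes that did not pass were Ifngr1, the ligand-binding chain for interferon gamma, at -0.05 and 0.07, and its partner Ifngr2, at -0.07 and -0.04. A dimmer Ifngr2 probe fell, with a mean of -0.42, so its probes gave different calls.

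Of the 6 tested transcription factors, 4 fell (66.7%, against 28.4% of all tested genes) and 1 rose (16.7%, against 32.7%). Irf5, a factor downstream of toll-like receptors, was -0.62 on array 1 and -0.46 on array 2, with a mean of -0.54 ± 0.11 (limma adjusted p = 0.00054). Irf7, the factor that amplifies type I interferon production, was -0.39 and -0.33, and was well above background in Cy5 on 1 array only. Irf2, an antagonist of Irf1, was -0.42 and -0.46, and Irf1 itself was -0.32 and -0.29. The falls of Irf1 and Irf2 turned to 0.35 and 0.08 under median centring without loess.

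Stat2, a subunit of the complex that type I interferon activates, ran the other way. Its ratio was 0.44 on array 1 and 0.51 on array 2, with a mean of 0.47 ± 0.05 (limma adjusted p = 0.000546), and it turned to -0.29 with spike-in centring. Irf3, which switches on interferon beta, was -0.03 and 0.06 and did not pass, while its dimmer probe rose with a mean of 0.56. Irf9, which the array files name Isgf3g and which the rule therefore missed, fell with -0.23 and -0.32, and stood at a mean of 0.23 under median centring without loess.

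Among sensors of foreign RNA and the Oas genes, 4 of 9 tested fell and 3 rose. The share that fell was 44.4%, against 28.4% of all tested genes. The share that rose, 33.3%, was near the 32.7% of all tested genes. Ifih1, which encodes the long-RNA sensor MDA5, was -1.08 on array 1 and -0.96 on array 2. Its normalised signal went from 550 in Cy3 to 260 in Cy5 on array 1 and from 380 to 196 on array 2. The mean was -1.02 ± 0.09 (limma adjusted p = 5.42e-05). Ddx58, which encodes RIG-I, the sensor of short RNA ends, was -0.86 and -0.96, and its other 2 tested probes fell too. Eif2ak2, the RNA-activated kinase PKR, was -0.47 and -0.50, and it stood at 0.07 under median centring without loess.

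The Oas family includes synthetases of the second messenger that activates RNase L, and which of its members make that messenger was not examined. Oas1c rose with 0.41 and 0.66, a mean of 0.53 ± 0.18 (limma adjusted p = 0.00111). Oas1d rose with 0.18 and 0.40, and its Cy3 signal was not well above background. Its bound of 1.22-fold under loess was no more than the measured ratio itself. Oas1e rose with 0.17 and 0.13. All 3 turned negative with spike-in centring, to -0.23, -0.48 and -0.61, and Oas1d and Oas1e did not pass at 0.01. Oasl1 fell with -0.14 and -0.35, was above background in Cy5 on 1 array only, and did not pass at 0.01 either. Oas1f, at -0.10 and 0.01, and Oas1a, at -0.12 and -0.14, did not pass. Oas1b, Oas1g, Oas1h, Oas2, Oas3 and Oasl2 had no tested probe.

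Within the Isg15 system and the Ifit group, 4 of 6 tested genes fell (66.7%, against 28.4% of all tested genes) and none rose (against 32.7%). Isg15, a ubiquitin-like protein joined to other proteins after interferon, was -0.69 on array 1 and -0.85 on array 2. Its normalised signal went from 657 to 409 and from 471 to 260, and the mean was -0.77 ± 0.12 (limma adjusted p = 0.000154). Usp18, the protease that removes Isg15 and damps the type I receptor, was -0.38 and -0.46.

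Rsad2, the antiviral enzyme viperin, was -1.09 and -0.96. In Cy5 both spots were not well above background, so its fall is at least 1.87-fold. Ifit3, a member of the family that holds back translation of viral RNA, was -0.46 and -0.48. Isg20, an RNA exonuclease, was 0.03 and -0.13, and Ifit2 was -0.15 and 0.02, and neither passed. A dimmer Isg20 probe fell, with a mean of -0.15 (limma adjusted p = 0.0473). Ifit1, among the classic targets of the pathway, had no tested probe.

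Of 7 tested restriction factors, 2 fell and none rose. The share that fell, 28.6%, was near the 28.4% of all tested genes. Bst2, or tetherin, which holds budding virus at the cell surface, was -0.66 on array 1 and -0.87 on array 2. Its signal was high in both channels, from 7515 to 4744 on array 1 and from 5630 to 3083 on array 2. Ifitm3, which blocks virus entry at membranes, fell less evenly, with -0.11 and -0.42. Its mean of -0.27 ± 0.22 (limma adjusted p = 0.0286) did not pass at 0.01 and was 0.48 under median centring without loess. Ifitm2, at 0.20 and 0.03, and Trim25, a ubiquitin ligase acting on RIG-I, at 0.07 and 0.08, were the brightest that did not pass. Dimmer probes of Ifitm2 and Trim25 fell, at -0.21 and -0.32. Mx1 had no tested probe.

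Among the interferon-induced GTPases, which act on the vacuoles of microbes inside cells, 3 of 6 tested fell and none rose. The share that fell was 50%, against 28.4% of all tested genes, of which 32.7% rose. Gbp3 was -1.56 on array 1 and -1.55 on array 2. Its normalised signal went from 774 to 262 and from 535 to 183, and the mean was -1.55 ± 0.01 (limma adjusted p = 2.21e-05). Igtp was -0.59 and -0.61. The probe that the files name Gbp6, which RefSeq assigns to Gbp7, was -0.21 and -0.27. Gbp2 was -0.10 and -0.15, and Gbp1, named Gbp2b by RefSeq, was 0.12 and -0.06, and neither passed. Gbp3 had the largest difference among the tested Gbp genes. Genes of this family resemble each other and a probe may read more than 1 of them.

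**Figure D3:**
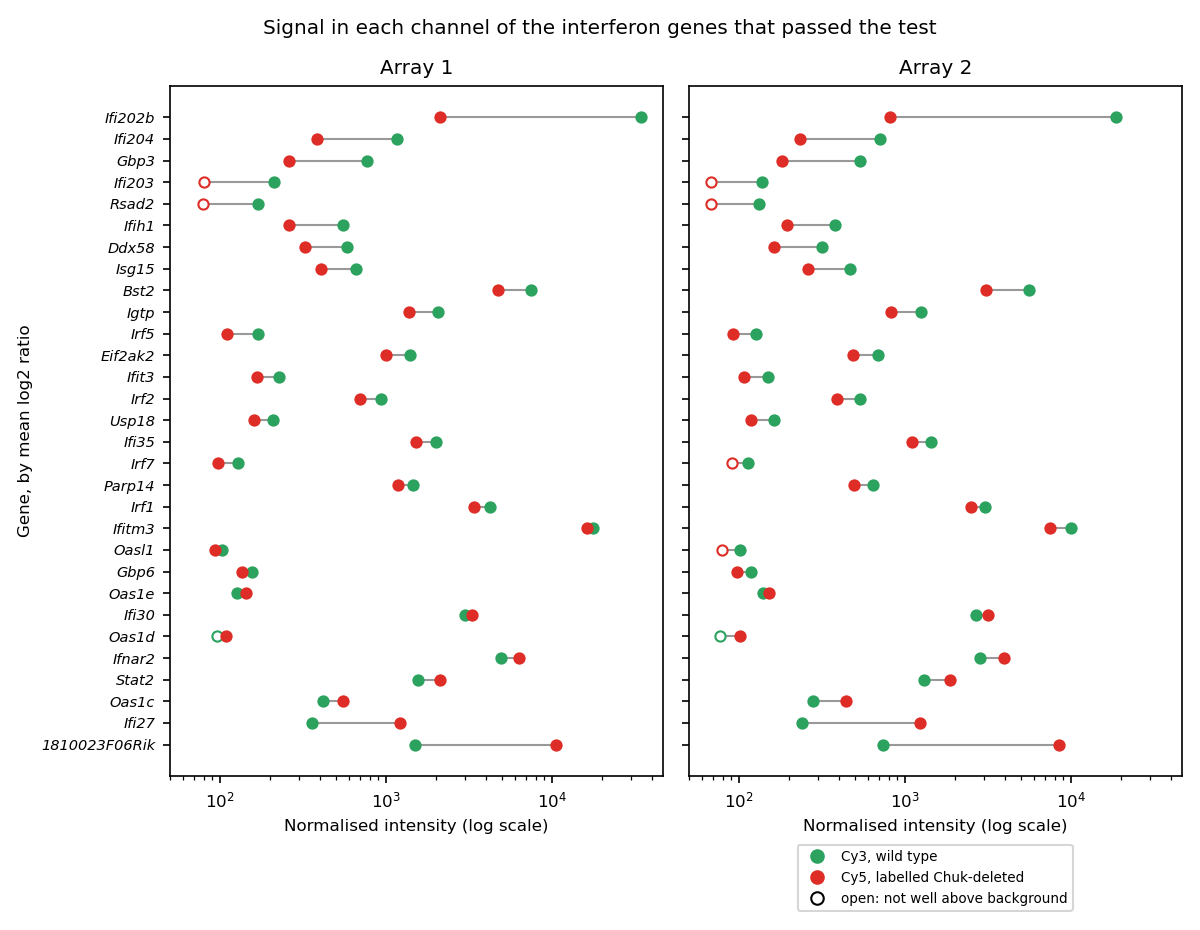
Normalised intensity (x axis, log scale) of each interferon gene that passed the test, one per row, on array 1 (left) and array 2 (right), with Cy3 in green, Cy5 in red and open points where a spot was not well above background. Ifi202b falls from 34370 to 2124 on array 1, and the Cy5 signals of Ifi203 and Rsad2 lie at the background.

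All 3 tested HIN-200 genes fell, against 28.4% of all tested genes. HIN-200 genes encode proteins that bind DNA in the nucleus or cytoplasm and are induced by interferon. Ifi202b was -4.02 on array 1 and -4.52 on array 2. Its signal went from 34370 in Cy3 to 2124 in Cy5 on array 1, and from 18720 to 817 on array 2. The mean of -4.27 ± 0.35, a 19.2-fold difference (limma adjusted p = 1.32e-05), was the fifth largest fall among 13551 genes. Ifi204 was -1.61 on both arrays, and its second tested probe fell with -1.23. Ifi203 was -1.39 and -1.03, and its Cy5 spots too were not well above background, so the fall at this probe is at least 2.13-fold. Its second tested probe fell less, with -0.57 and -0.36.

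The HIN-200 genes lie side by side on chromosome 1, and the run was looked at after the values above were seen. Not counting Aim2, which had no tested probe, RefSeq orders 12 genes there. Of these, 6 were tested, and all 6 fell, against 28.4% of all tested genes. Ifi209, Ifi207 and Ifi211 kept that direction under the 3 other centrings, with Ifi207 nearest to 0 at -0.26 under median centring without loess. The rule did not take 3 of these, which were Ifi209 at -0.46, Ifi207 at -0.53 and Ifi211, named Mnda in the files, at -1.54. The nearest tested genes on either side gave opposite signs, with Ackr1 at -0.23 and Olfr430 at 0.27, although Olfr430 turned to -0.49 with spike-in centring and to -0.11 with median centring brought back to the loess median. Members of the family have similar sequences, so their probes may share signal.

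Of the 5 other tested induced genes, 3 rose (60%, against 32.7% of all tested genes) and 2 fell (40%, against 28.4%). The gene that the files name 1810023F06Rik, which is Ifi27l2b, was 2.84 on array 1 and 3.54 on array 2. Its signal went from 1492 to 10650 and from 737 to 8558, and the mean of 3.19 ± 0.50, a 9.11-fold difference (limma adjusted p = 3.72e-05), ranked 2 among the rises. The probe named Ifi27, which RefSeq assigns to Ifi27l2a, was 1.76 and 2.35, with a mean of 2.06 ± 0.42 and rank 24. Another probe of the same transcript was 0.16 and 0.12 and did not pass, so the rise of Ifi27l2a rests on 1 of its 2 probes. Both genes encode small hydrophobic proteins induced by interferon.

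On chromosome 12 the Ifi27 genes stand together, again looked at after their values were seen. Ifi27 itself, which RefSeq places between Ifi27l2a and Ifi27l2b, did not share their large rises. Its brightest probe, named D12Ertd647e in the files and so outside the rule, rose with 0.21 and 0.28, and stood at 0.41 with median centring brought back to the loess median and at -0.52 with spike-in centring. A dimmer probe that both the files and RefSeq name Ifi27 was 0.03 and 0.04 and did not pass. Ddx24, next to Ifi27l2a, rose with 0.75 and 0.91, but stood at 0.065 with spike-in centring and did not pass there. Otub2, beyond Ddx24, fell with -0.36 and -0.28 and stood at 0.15 under median centring without loess. Ppp4r4, on the other side, was 0.18 and 0.07 and did not pass.

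**Figure D4:**
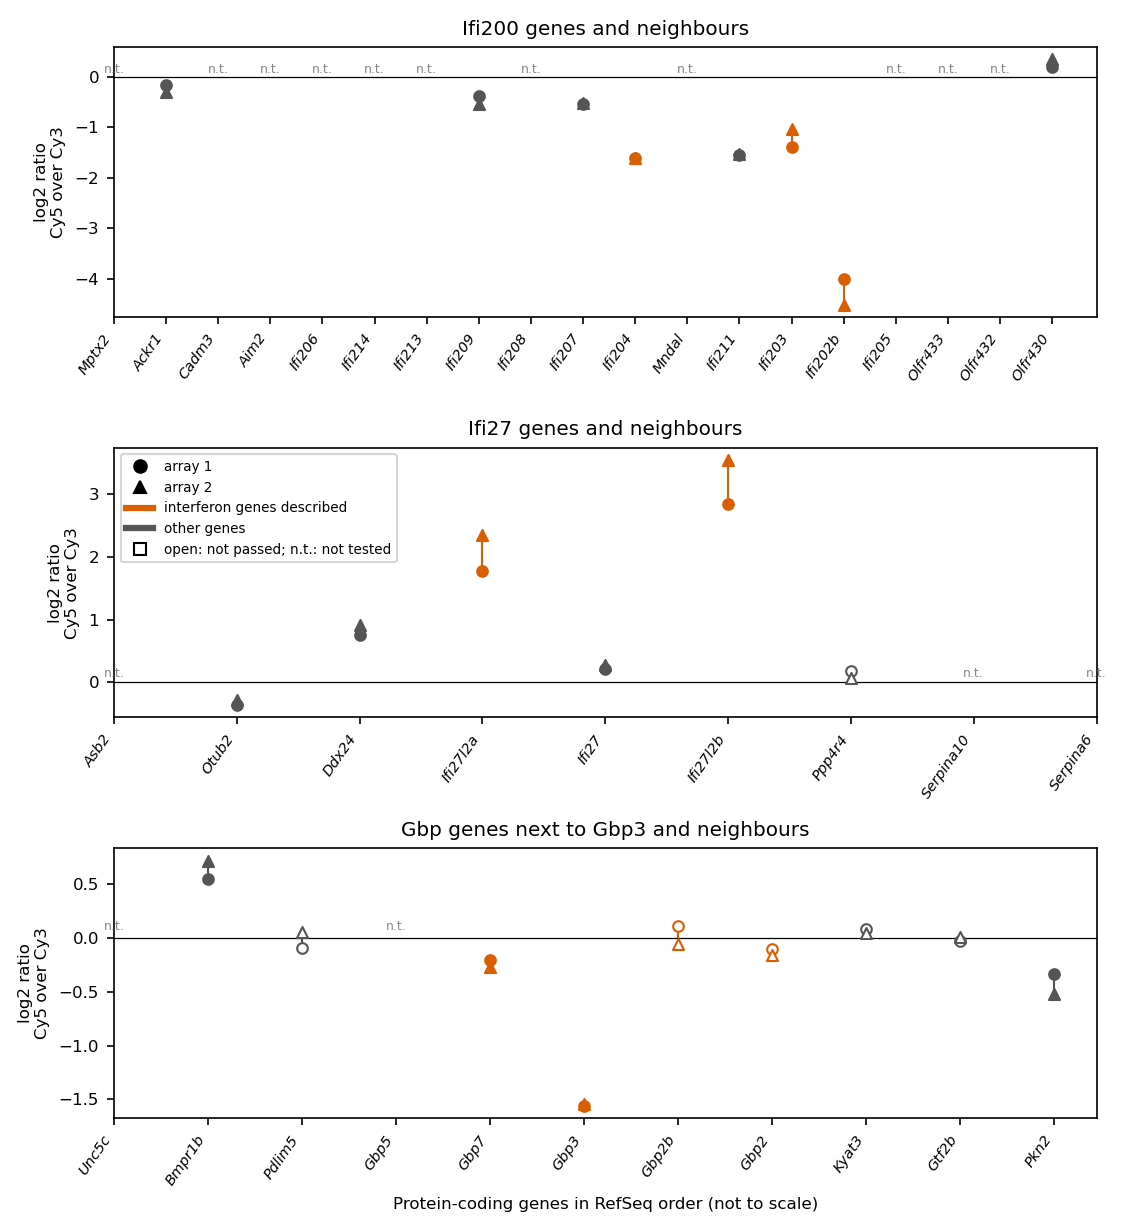
Log2 ratio of Cy5 over Cy3 (y axis) for genes in RefSeq order along 3 gene runs (x axis, not to scale), with interferon genes that the rule took in orange and other genes in grey, open symbols for genes that did not pass and n.t. for genes not tested. The 6 tested Ifi200 genes lie below 0, Ifi27l2a and Ifi27l2b lie above 2 on the mean of both arrays with Ifi27 between them at 0.24, and Gbp3 lies below its neighbours.

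The remaining induced genes moved less. Ifi30, a lysosomal thiol reductase used in antigen processing, rose with 0.15 and 0.25, did not pass at 0.01 and was -0.57 with spike-in centring. Ifi35 fell with -0.39 and -0.38 but stood at 0.22 under median centring without loess. The brightest probe of Parp14, an ADP-ribosyltransferase, fell with -0.31 and -0.37, and a dimmer one rose with 0.24 and 0.35, so its probes disagree, and it counts as fallen above by its brightest probe. Parp14 was the only one of 13 interferon genes with several tested probes whose probes were called both ways.

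A wider list of 99 other genes of the pathway, from general knowledge, had 64 tested members, of which 25 fell (39.1%, against 28.4% of all tested genes) and 15 rose (23.4%, against 32.7%), with a median of -0.08. Of 19 interferon ligands listed, 5 were tested, and Ifna9 alone passed, rising with 0.20 and 0.24 and turning to -0.54 with spike-in centring and to -0.09 with median centring brought back to the loess median. Both subunits of the interferon lambda receptor fell, with Ifnlr1 at -0.95 and -1.16 and Il10rb at -0.28 and -0.21, but Il10rb stood at 0.47 under median centring without loess. Of the 9 tested genes that lead to interferon production, 5 fell (55.6%, against 28.4% of all tested genes) and 2 rose (22.2%, against 32.7%). Ikbke, a kinase of Irf3, rose with 0.43 and 0.53, which turned to -0.28 with spike-in centring.

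Among 38 tested induced genes of that list 16 fell (42.1%) and 10 rose (26.3%), beside the same 28.4% and 32.7% of all genes. Cxcl10, a chemokine and a common readout of interferon gamma, was -2.21 on array 1 and -2.75 on array 2. Its signal went from 3286 to 709 and from 2054 to 306. On the other side, Sp100, a nuclear body protein, had a mean of 1.14, and Lgals9, a galectin, a mean of 0.86. Sp100 was well above background in Cy3 on 1 array only and stood at 0.38 with spike-in centring. Lgals9 stood at 0.10 with that centring and did not pass there. Under median centring without loess 45 of the 64 genes were called higher and 6 lower, and with spike-in centring 1 was higher and 62 lower.

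Markers of other cells went in different directions, beside 28.4% of all tested genes that fell and 32.7% that rose. Of 5 tested macrophage markers 3 fell, with Adgre1 at -1.15, Lyz2 at -1.02 and Csf1r at -0.81. Adgre1 and Csf1r were well above background in Cy5 on 1 array only. Cd68, at 0.13, and Cd14, at -0.15, did not pass. The summed macrophage signal went from 5506 to 3949 on array 1 and from 3581 to 2519 on array 2. Within that sum Lyz2 went from 3025 to 1553 and from 1828 to 868. All 4 tested melanocyte markers fell, and the summed signal went from 59240 to 24130 and from 38260 to 13330. Of 6 fibroblast markers 4 rose and 1 fell. The leukocyte markers Ptprc, Cd52, Cd53 and Laptm5 were not tested, since they were not well above background in either channel. The fifth, Coro1a, was at 0.07 and did not pass, while its dimmer probe fell with a mean of -0.17. The Langerhans and dendritic, T cell and endothelial lists had 1 tested marker each, which were H2-Ab1 at 0.29, Cd3e at 0.21 and Kdr at 0.21. These 3 passed on the higher side but turned to -0.48, -0.56 and -0.55 with spike-in centring. A dimmer H2-Ab1 probe, at -0.10 and -0.13, did not pass, and Cd3e was not well above background in Cy3 on array 2. The part of these cells in the interferon genes' values was not tested, and in bulk RNA fewer cells of a type and less RNA per cell cannot be told apart.

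**Figure D5:**
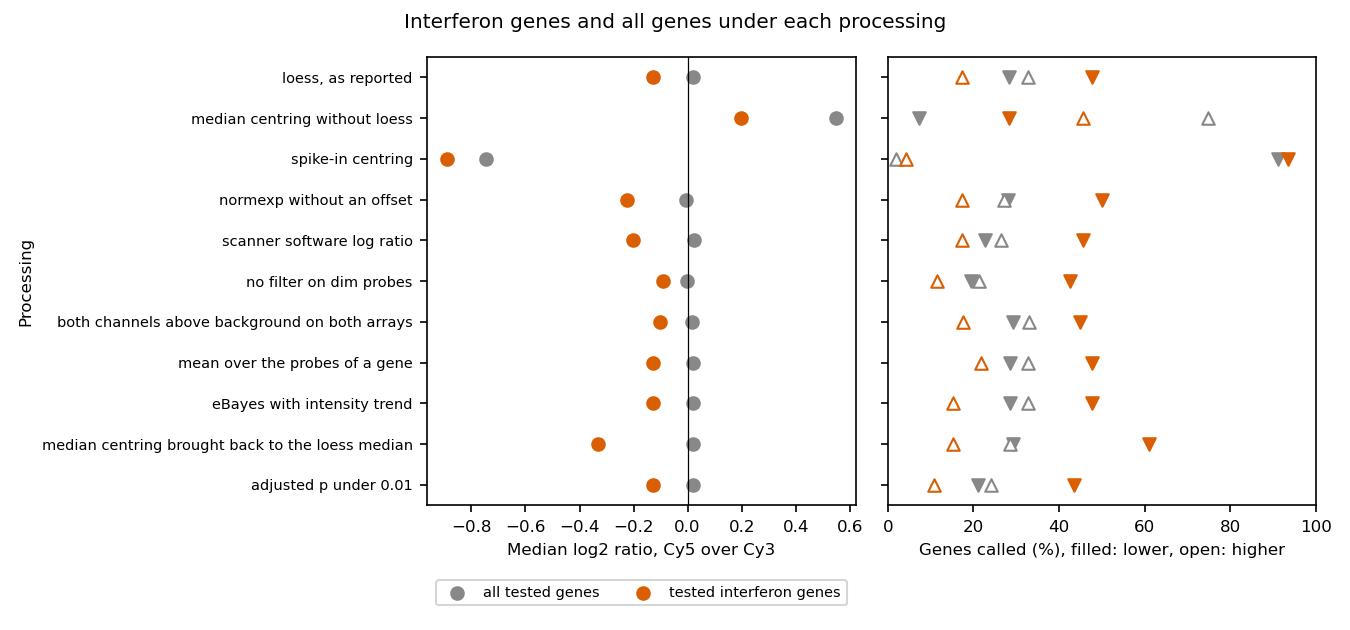
Median log2 ratio (left, x axis) and percentage of genes called (right, x axis; filled for lower, open for higher) for all tested genes in grey and tested interferon genes in orange, with each processing setting as a row. The interferon median lies below that of all genes in every row, but its sign turns to 0.20 under median centring without loess.

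The 15 genes without a tested probe were Gbp4, Gbp5, Ifi205, Ifi44, Ifit1, Iigp1, Irf8, Mx1, Oas1b, Oas1g, Oas1h, Oas2, Oas3, Oasl2 and Trim30, and no level can be read for them. Of the listed symbols, Irf9, Dhx58, Irgm1 and Xaf1 named no probe. Under their older names Dhx58 and Irgm1 did not pass, at means of 0.14 and 0.15. The tested interferon genes were dimmer than the rest, with a median log2 intensity of 8.88 against 10.09 over all tested genes. Where both channels had to be above background on both arrays, 40 interferon genes were left, of which 18 fell (45%, against 29.3% of all genes) and 7 rose (17.5%, against 33.1%).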

How the data were processed

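Each of 2 two-colour arrays set wild-type keratinocyte RNA (Cy3) against Chuk-deleted keratinocyte RNA (Cy5), per the labels. The deposited scanner files, which name Feature Extraction 9.1.3.1 as their source, hold per the file headers mean spot intensity and median local background per channel, uncorrected, and the authors' software's log10 ratio. The deposited value table equalled that log10 ratio to within 0.005, with a median of 0 on both arrays. Flags for background, saturation and outliers are other deposited columns, per the file headers. 

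Background was corrected with normexp (offset 50) in limma 3.58.1 under R 4.3.3, and log2 ratios were normalised by loess with control spots at weight 0. Outlier spots (51 and 18) were left out and spots of a probe averaged. A probe needed 1 channel well above background on each array, which left 23514 of 41174 for lmFit and eBayes (two-sided, against 0, Benjamini-Hochberg over all probes, threshold 0.05, 1 residual and 5.16 prior degrees of freedom). On simulated arrays of this design the estimated prior degrees of freedom came out too high on average and the share of false calls exceeded the threshold, so the calls were also counted at 0.01. The fit itself was kept as planned. A gene is its brightest tested probe. Bounds set the dim channel to the array's lowest detected signal after loess and Aquantile, or to its own signal where that was higher. They are open to dye bias. The number of arrays limits the precision.

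Probes were named through RefSeq (GRCm38.p6): 16124 by accession, 4721 by symbol or synonym, 429 kept the file's name and 2240 had none. Promoter sequences are RefSeq's of that build. The members and lists were chosen with earlier results of these data known. The values of some genes of the pathway are not reported here. Named genes are every member past the threshold, the 2 brightest of each role that did not pass, and members with probes called both ways. Alternatives changed the centring, background correction, log ratio, filter, probe summary, intensity trend and threshold, and left out each array. Of these, 2 were added after the data were seen: median centring brought back to the loess median, and the threshold of 0.01.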

Additional observations from a re-analysis of the deposited data

How the results depend on the processing

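Directions of single genes depended most on the centring. Under median centring without loess, all genes counted 10137 higher and 978 lower (1278 and 226 at 2-fold), interferon genes 21 higher and 13 lower with a median of 0.20, and the wider list 45 higher and 6 lower. There Eif2ak2 came to 0.07, Irf2 to 0.08, Ifi35 to 0.22, Parp14 to 0.21, Irf1 to 0.35, Ifitm3 to 0.48, Gbp2 to 0.29, Isg20 to 0.50, Ifit2 to 0.23, Ifngr2 to 0.62 and Oas1f to 0.39. With spike-in centring, all genes counted 266 higher and 12352 lower (29 and 2103 at 2-fold), interferon genes 2 higher and 43 lower (18 lower at 2-fold) with a median of -0.89, and the wider list 1 and 62. There Oas1e came to -0.61, Ifi30 to -0.57, Oas1d to -0.48, Ifnar2 to -0.33, Stat2 to -0.29, Oas1c to -0.23, Gbp1 to -0.74, Irf3 to -0.75, Ifitm2 to -0.65, Trim25 to -0.69 and Ifngr1 to -0.76. Spike-in centring moves every ratio of an array by the same amount. Median centring without loess changes both the zero and the correction for intensity, and the cause of its shifts was not tested. These 2 fits and the next had an infinite prior degree of freedom, so their calls rest on a single spread for all probes.

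Median centring brought back to the loess median gave a median of -0.33, with Oas1e at -0.25 and Oas1d at -0.40. The interferon median was -0.22 without the normexp offset, -0.20 from the scanner software's log ratio, -0.09 without the filter and -0.10 with both channels above background. At 2-fold, 7 interferon genes were lower without the offset and 8 from the scanner's ratio, which gave 411 and 676 over all genes, and 1 was higher with probes averaged. The cause was not tested. At a threshold of 0.01, 5 interferon genes rose: Oas1d, Oas1e and Ifi30 were lost, as were the falls of Oasl1 and Ifitm3.

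On a single array, with no test, all genes at least 2-fold higher numbered 218 to 332 and lower 459 to 576, interferon genes 2 higher and 4 to 6 lower, with medians from -0.14 to -0.11. The 332 came without replicate 1. Each array's ratio already sets mutant against wild-type RNA. No paired analysis was possible because, beyond that, the labels give a single group and no block. Signal over background limits Ifi203 and Rsad2 to bounds, while the bounds of Oas1d and Ifi47 equal their measured ratios.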
